A study of Mus musculus with 2 samples.

Results

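Gulo, Slc23a1 and Slc23a2 make up the vitamin C synthesis and transport genes described here, 3 of the 31057 features counted in single cells of the mouse adrenal cortex. The features were matched by gene symbol, and their levels were read across cells grouped by the CPM (counts of unique molecular identifiers, UMIs, scaled to 1e+06 per cell) of Cyp11b2, Cyp11b1 and Aldh1a1 in each of 2 libraries. The grouping used the measured values of those 3 genes, and they were tested nowhere. The genes described were themselves chosen with earlier results of these data known. Both libraries came from male SF1-Cre; Rosa mTmG mice of 15 weeks labelled as wild type, with no treatment and no control group, so every comparison lies between groups of cells within the libraries. In these animals Cre is driven by the promoter of SF1 (Nr5a1), the factor that sets steroidogenic identity, and mTmG is a membrane reporter that Cre switches from red to green. A total of 26 adrenals was dissociated, and the labels do not say which animals went into which library. Live cells were sorted as positive for a DNA dye and negative for DAPI, and the labels name no gate on the green reporter.

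Most mammals make vitamin C, or ascorbate, from glucose, though humans and guinea pigs do not. The last step is catalysed by L-gulonolactone oxidase, the product of Gulo, an enzyme best known from the liver of rodents. Cells also import ascorbate with sodium through the transporters encoded by Slc23a1 (SVCT1, mainly in epithelia of gut, kidney and liver) and Slc23a2 (SVCT2, in most other tissues), and they take up its oxidised form, dehydroascorbate, through glucose transporters. The adrenal gland is among the organs richest in ascorbate, and the adrenal of mice lacking SVCT2 is known to be depleted of it. In the cortex, the outer zona glomerulosa makes aldosterone with the aldosterone synthase Cyp11b2, and the zona fasciculata makes corticosterone with the 11β-hydroxylase Cyp11b1.

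Gulo lies on chromosome 14 at 65986786 to 66009207, Slc23a2 on chromosome 2 at 132052496 to 132145108 and Slc23a1 on chromosome 18 at 35614604 to 35627244, all on the minus strand of mm10 in the GENCODE M21 annotation. These spans are the whole protein-coding genes. Slc23a2 overlaps the antisense gene Gm14051 and the pseudogene Gm14052, and Slc23a1 overlaps Paip2. All of these neighbours lie on the plus strand, and no label states whether the counting used strand.

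The depth of library 1 was 92905273 UMIs over 5040 cell barcodes and that of library 2 was 28023733 UMIs over 2288, and 4 barcodes occurred in both. After filters 4689 and 1970 cells remained, of which 6432 were cortical by their steroid enzyme transcripts. The groups were 484 and 258 Cyp11b2-high cells (at least 200 CPM, with Cyp11b1 below 200), 48 and 27 co-expressing cells (both at least 200), 2876 and 987 cells low in both, 627 and 219 Cyp11b1-intermediate cells (200 to 1000 CPM), 497 and 344 Cyp11b1-high cells (at least 1000 CPM) and 35 and 30 Aldh1a1-high cells (at least 500 CPM). These groups are ranges of transcript level, not cell types: 385 and 111 cells lay within 25% of the Cyp11b2 threshold, 171 and 53 within 25% of the lower and 251 and 98 of the upper Cyp11b1 threshold, and 9 and 2 of the Aldh1a1 threshold. Cyp11b1 and Cyp11b2 are close paralogs, and reads shared between them could not be assigned with certainty.

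Summed markers of the zones differed between the groups, in part by construction. The glomerulosa list includes Cyp11b2 and the fasciculata list includes Cyp11b1, which define the groups. The summed level of 8 glomerulosa markers was 6356 and 7413 CPM in the Cyp11b2-high cells and 5515 and 6170 CPM in the cells low in both, against 3146 and 2953 CPM in the Cyp11b1-high and 1215 and 404 CPM in the Aldh1a1-high cells. The 5 fasciculata markers summed to 2144 and 1942 CPM in the Cyp11b2-high cells, 4003 and 5587 CPM in the Cyp11b1-high cells and 7829 and 11411 CPM in the Aldh1a1-high cells. Abcb1b alone made up most of the Aldh1a1-high sums. With the grouping genes left out, 7 glomerulosa and 4 fasciculata markers entered the edgeR test described below. In the Cyp11b1-high against the Cyp11b2-high cells (33.8% of all genes called), 6 glomerulosa markers were lower and 1 higher. Of the fasciculata markers 2 were higher there and 0 lower. In the Aldh1a1-high against the same cells (28.4%) 6 glomerulosa markers were lower, while 2 fasciculata markers were higher and 2 lower. Markers of other cell types were low: the 3 hepatocyte markers summed to 0 to 3.50 CPM over the 12 group sums with Ttr at 0, the 5 chromaffin markers to 0 to 0.683 CPM with Th, Dbh and Pnmt at 0, and Akr1c18 and Pik3c2g of the X-zone were at 0. The third X-zone gene, Thrb, held all 1249 UMIs of that list and stood at 10.3 and 11.6 CPM in the Cyp11b2-high cells against 40.3 and 102 CPM in the Aldh1a1-high cells, and its part in the differences was not tested. The 5 markers of stroma and capsule summed to 0 to 29.9 CPM and the 4 of endothelium to 1.93 to 18.6 CPM. The 9 leukocyte markers, which also served to set leukocytes aside, summed to at most 8.62 CPM. The 2 hemoglobin markers reached 1287 and 1183 CPM in the Cyp11b1-high cells, almost all of it in 7 and 3 cells. Without the cells of at least 20 hemoglobin UMIs every difference given below for Gulo and Slc23a2 kept its sign and its side of the threshold.

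Gulo, which encodes the enzyme that completes vitamin C synthesis, was transcribed in the cortex, with 4432 UMIs over the cortical cells. It was highest in the Cyp11b2-high cells and close to absent in the Cyp11b1-high and Aldh1a1-high cells. In the Cyp11b2-high cells it reached 53.7 CPM in library 1 (534 UMIs, exact Poisson 95% interval 49.2 to 58.5) and 93.8 CPM in library 2 (388 UMIs, 84.7 to 104). The cells low in both enzymes followed with 41.7 and 54.7 CPM. Co-expressing cells had 28.5 and 50.2 CPM from 33 and 20 UMIs. Each of these groups overlapped its neighbour over the 2 libraries, although within each library they stood in that order.

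Gulo was at 22.5 and 23.3 CPM in the Cyp11b1-intermediate cells, below both values of each group named so far. The Cyp11b1-high cells held 6.56 CPM (51 UMIs in 24 cells) and 3.19 CPM (14 UMIs in 13 cells). The Aldh1a1-high cells held 8.75 CPM from 5 UMIs in 2 cells of library 1 and no UMI in library 2, where 3 UMIs would have been 7.31 CPM. The last 2 groups overlapped each other, and neither reached the intermediate cells. No Gulo UMI was found in 83 and 72 leukocytes, which allows up to 6.49 and 8.90 CPM (3 UMIs), at median depths of 4469 and 4116.5 UMIs per cell against 20865 and 17958 in the Cyp11b2-high cells. These intervals and limits cover counting error only, and fewer expressing cells and less RNA per cell cannot be told apart in a summed level.

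**Figure D1:**
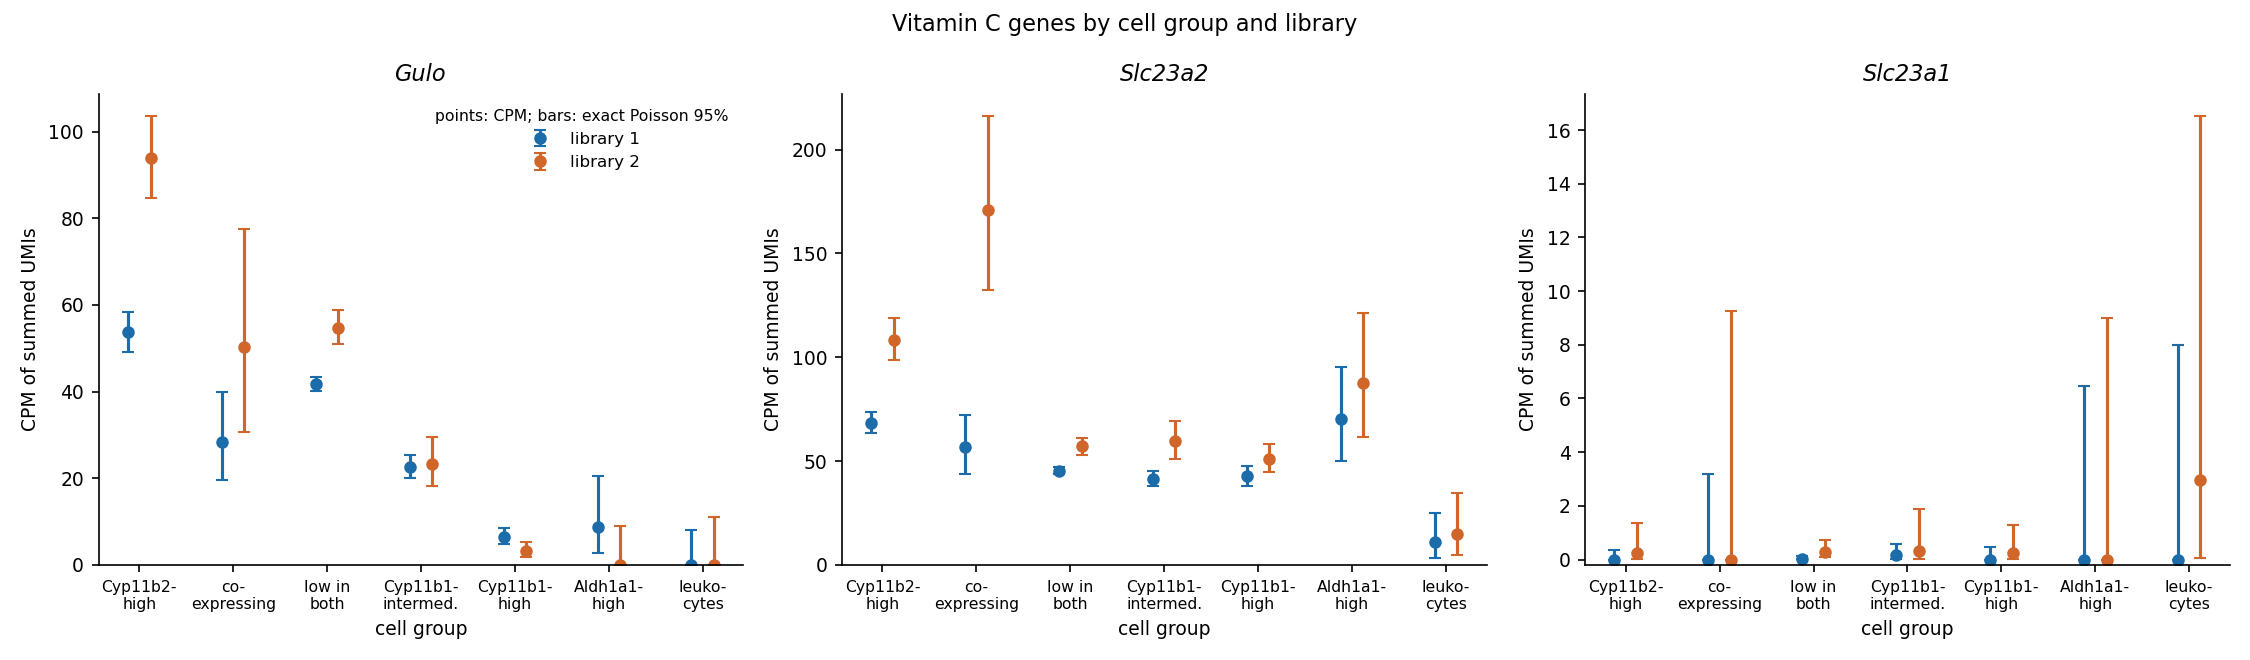
Level of Gulo, Slc23a2 and Slc23a1 (vertical axes, CPM of the UMIs summed over each cell group) in 6 cortical cell groups and in leukocytes (horizontal axes), with 1 point per library and exact Poisson 95% intervals as bars. Gulo steps down from 53.7 and 93.8 CPM in the Cyp11b2-high cells to 6.56 and 3.19 CPM in the Cyp11b1-high cells, Slc23a2 stays above 40 CPM in every cortical group, and Slc23a1 stays near 0.

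UMI sums per group and library were compared with edgeR's quasi-likelihood test across 11813 genes, with a term for library and Benjamini-Hochberg adjustment over all of them. The p-values rest on how the differences between groups varied between 2 libraries, and that variation may be technical. Gulo and Slc23a2 were picked with earlier results of these data known. Between Cyp11b1-high and Cyp11b2-high cells, 33.8% of all genes tested passed an adjusted p of 0.05, 15.6% as higher and 18.3% as lower in the Cyp11b1-high cells, and both Gulo and Slc23a2 were among the lower genes. The log2 difference of Gulo was -3.76 ± 0.22 (SE, adjusted p = 1.55e-11), the 19th most negative of all genes tested. In library 1 the Cyp11b2-high level was 8.19-fold the Cyp11b1-high level (95% counting interval 6.14 to 11.1), and in library 2 it was 29.4-fold (17.3 to 54.3). The direction was shared and the size was not: the 2 libraries gave log2 differences of -3.14 and -4.96. Doubling every group threshold gave -5.49 and halving them gave -3.12.

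The Aldh1a1-high cells are a small group marked by a retinaldehyde dehydrogenase and by very high Abcb1b, a drug and steroid exporter of the fasciculata (4588 and 8302 CPM). Their position in the cortex was not measured. Against the Cyp11b2-high cells 28.4% of genes passed the threshold, 13.3% as higher and 15.1% as lower, and 46.9% of those calls were higher in the Aldh1a1-high cells, a share that became 57.8% with DESeq2. Gulo was lower there (log2 difference -3.81 ± 0.59, edgeR adjusted p = 3.34e-05). Library 1 gave a 6.13-fold higher level in the Cyp11b2-high cells (counting interval 2.61 to 19.0). In library 2 the Aldh1a1-high cells held no Gulo UMI, and the lower end of the counting interval was 10.4-fold. With 3 UMIs set in place of 0 the fold in library 2 was 12.8, which leaves out counting error and is not a lower bound. Doubled thresholds gave -5.96, and library 1 alone gave -2.74. Between Aldh1a1-high and Cyp11b1-high cells, where 14.8% of genes passed (7.85% higher and 6.95% lower in the Aldh1a1-high cells), the Gulo difference was -0.04 ± 1.01 (edgeR adjusted p = 0.987), resting on 5 UMIs in the Aldh1a1-high cells. Of the genes called there 53.0% were higher in the Aldh1a1-high cells, and 66.1% with DESeq2. A difference of a few fold in Gulo was not detectable at this depth.

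Smaller steps lay between the Cyp11b2-high cells and the low-in-both and intermediate groups. Gulo was lower in the cells low in both enzymes than in the Cyp11b2-high cells by -0.60 ± 0.12 (log2, edgeR adjusted p = 0.00171), a comparison in which 13.0% of genes passed (5.69% higher and 7.33% lower). DESeq2 gave -0.65 with an adjusted p of 0.433, so this call depended on the tool. The Cyp11b1-intermediate cells were lower than the Cyp11b2-high cells by -1.61 ± 0.16 (edgeR adjusted p = 2.17e-07), where 17.4% of genes passed (7.14% higher and 10.3% lower). Both steps had the same sign in both libraries, with folds of 1.29 and 1.71 for the first and of 2.38 and 4.03 for the second.

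Within the ranges of the grouping genes Gulo was lower where Cyp11b1 was higher. Among cells with Cyp11b2 below 200 CPM and no Cyp11b1 UMI it stood at 44.3 and 56.7 CPM. Below 100 CPM of Cyp11b1 it was 33.8 and 58.6 CPM, and from 100 to 200 it was 39.3 and 23.6 CPM. From 200 to 500 CPM of Cyp11b1 it was 27.4 and 18.3 CPM, from 500 to 1000 it was 17.3 and 27.8 CPM, and from 1000 to 2000 it was 9.30 and 4.51 CPM. At 2000 CPM of Cyp11b1 or more it was 1.15 CPM (3 UMIs in 188 cells) and 2.46 CPM (7 UMIs in 224 cells). From 200 CPM upward each step was down in library 1, while library 2 was higher at 500 to 1000 than at 200 to 500, with counting intervals that overlapped. The median depth of the cells was 17825 and 14782.5 UMIs in the first of these bins and 15511.5 and 13717 UMIs in the last.

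Gulo also varied with Cyp11b2 among cells with little Cyp11b1. Cells with no Cyp11b2 UMI had 32.5 and 43.2 CPM of Gulo, and cells with any Cyp11b2 below 100 CPM already had 52.9 and 74.0 CPM. Above that, library 1 stayed between 50.3 and 64.6 CPM and library 2 between 82.0 and 94.8 CPM. The cells with no Cyp11b2 UMI were shallower, at a median of 16813 and 13982 UMIs against 20908 and 17262 UMIs in the next bin, and the part of depth was not tested. Slc23a2 was higher in each successive bin of Cyp11b2, from 38.9 and 50.2 CPM with none to 82.2 and 123 CPM at 400 CPM or more. Across bins of Cyp11b1, Slc23a2 stayed between 38.1 and 47.0 CPM in library 1 and between 44.5 and 69.9 CPM in library 2.

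**Figure D2:**
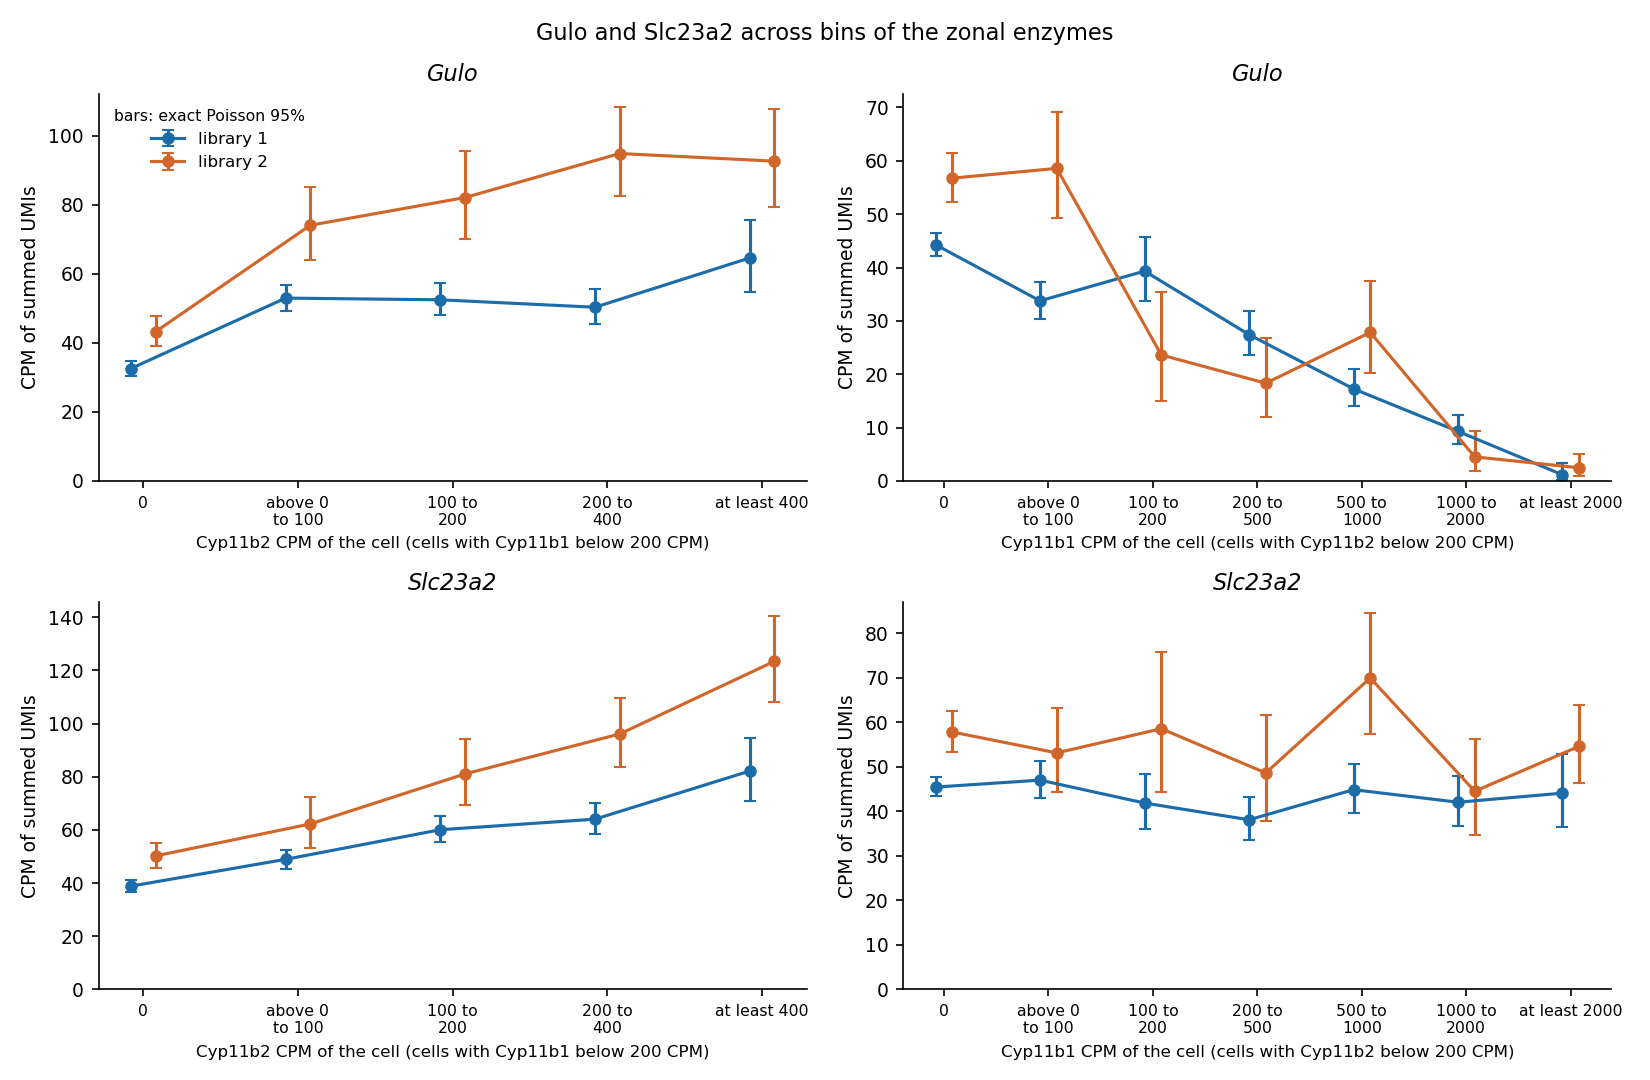
Gulo (top) and Slc23a2 (bottom) in CPM of summed UMIs (vertical axes) across bins of the cell's own Cyp11b2 (left) or Cyp11b1 (right) CPM (horizontal axes), with 1 line per library and exact Poisson 95% intervals as bars. Gulo reaches 1.15 and 2.46 CPM in the highest Cyp11b1 bin, where Slc23a2 is still at 44.1 and 54.6 CPM.

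Depth and RNA content differed between the groups as well. The median depth was 20865 and 17958 UMIs in the Cyp11b2-high cells and 16077 and 13875 UMIs in the Cyp11b1-high cells. After every cell had been thinned to 5000 UMIs, 18.6% and 28.6% of the Cyp11b2-high cells kept a Gulo UMI against 2.53% and 2.63% of the Cyp11b1-high cells, where the unthinned shares were 36.4% and 40.7% against 4.83% and 3.78%. Thinning left out 22 and 38 shallower Cyp11b2-high cells and 63 and 78 Cyp11b1-high cells. The nuclear RNA Malat1 moved the other way from Gulo, from 20854 and 26837 CPM in the Cyp11b2-high cells to 29452 and 38904 CPM in the Cyp11b1-high and 27788 and 56313 CPM in the Aldh1a1-high cells. The share of mitochondrial UMIs had medians of 7.36% and 7.13% in the Cyp11b2-high, 5.49% and 4.75% in the Cyp11b1-high and 4.52% and 6.28% in the Aldh1a1-high cells. The part of Malat1 and mitochondrial content in the Gulo differences was not tested.

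Gulo was uneven from cell to cell even within the Cyp11b2-high group. Single cells held up to 21 Gulo UMIs in library 1 and up to 19 in library 2, while 36.4% and 40.7% of the cells held any. At 5000 UMIs per cell the variance of Gulo was 1.90 and 1.82 times its mean. A Poisson spread at the same mean would have put a Gulo UMI in 26.0% and 39.1% of these cells, above the measured 18.6% and 28.6% (exact binomial 95% intervals 15.2% to 22.5% and 22.8% to 35.1%). The cells low in both enzymes showed the same gap, with 14.4% and 16.7% measured against 17.9% and 22.5% from a Poisson spread.

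Slc23a2 lay close to the Poisson share in the same cells. Its measured shares in the Cyp11b2-high cells were 28.6% and 40.5%, beside Poisson shares of 29.7% and 41.5%, and its variance was 1.10 and 1.08 times its mean. The share of cells with Slc23a2 did not separate by Gulo in the Cyp11b2-high group: 32.6% of the Gulo-positive and 27.7% of the Gulo-negative cells held a Slc23a2 UMI in library 1, and 33.3% and 43.3% did in library 2. The 2 libraries thus pointed in opposite directions, with intervals that overlapped within each. In the cells low in both enzymes the shares were 19.0% and 18.3% in library 1 and 22.2% and 21.3% in library 2.

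**Figure D3:**
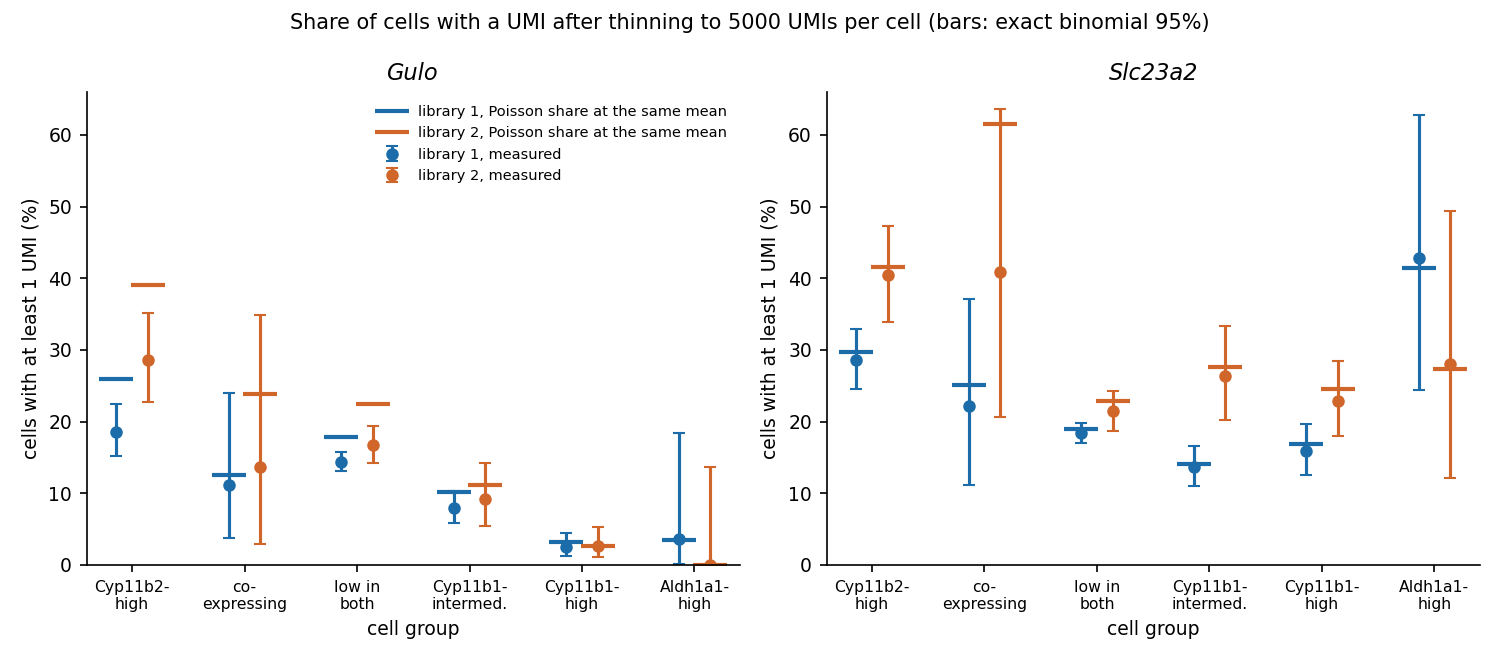
Share of cells with at least 1 Gulo (left) or Slc23a2 (right) UMI after thinning each cell to 5000 UMIs (vertical axes, %), by cell group (horizontal axes); points are measured shares per library with exact binomial 95% intervals, and flat dashes are the shares that a Poisson spread with the same mean would give. For Gulo the dashes lie above the intervals in the Cyp11b2-high cells (26.0% and 39.1% against 18.6% and 28.6%), and for Slc23a2 they lie inside them in the same cells.

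Cells rich in Gulo were compared with cells lacking it among the Cyp11b2-high and low-in-both cells, a split chosen after the values were seen and given as a description with no test. After thinning to 5000 UMIs, 136 and 80 cells held at least 2 Gulo UMIs and 2756 and 876 held none, with 351 and 127 cells at 1 UMI between them. Of 7223 genes with at least 20 CPM in one of the sums, other than Gulo and the grouping genes, 2 (0.0277%) were at least 2-fold higher in the Gulo-rich cells in each library and 9 (0.125%) at least 2-fold lower. The higher genes were Eno3, at 446 and 408 CPM against 215 and 185 CPM, and Scg5, at 108 and 96.1 CPM against 52.3 and 46.2 CPM. Both also stood among the genes most like Gulo over the group sums. More of the Gulo-rich cells were Cyp11b2-high (24.3% and 36.2% against 13.6% and 17.9%), and within the Cyp11b2-high cells alone the Eno3 ratio was 1.38 and 1.40, while within the low-in-both cells it was 2.26 and 2.53.

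The 9 lower genes were of several kinds: Mki67, Cenpf, Id1, Id3, Adh1, Scx, Hist1h2ap, Serpinb6b and Abca1. Adh1 was the most abundant of them in the Gulo-free cells, at 68.9 and 70.3 CPM against 27.1 and 9.96 CPM in the Gulo-rich cells. Genes of dividing cells were among the 9. Mki67, a proliferation marker, had 0 and 6 UMIs in the Gulo-rich cells (3 UMIs would be 1.08 CPM in library 1) against 20.6 and 25.4 CPM in the Gulo-free cells. Cenpf, a kinetochore protein of late cell cycle, stood at 2.17 and 3.56 CPM against 21.7 and 34.9 CPM. Id1 and Id3, inhibitors of basic helix-loop-helix factors, stood at 7.59 and 3.56 CPM against 23.1 and 25.4 CPM and at 7.59 and 1.42 CPM against 17.9 and 25.4 CPM. These UMIs lay mostly in cells low in both enzymes, where Mki67 had 1024 and 359 UMIs among the Gulo-free cells against 89 and 3 among the Cyp11b2-high ones. Within the Cyp11b2-high cells alone, Mki67 had 0 and 0 UMIs in the Gulo-rich cells and Cenpf 1 and 0. The Gulo-free cells of that group held 11.1 and 1.04 CPM of Mki67 and 8.35 and 5.19 CPM of Cenpf. These levels were too low for a ratio in library 2. Abca1 in that group was 1.06-fold and 0.73-fold its Gulo-free level. Id1 had 3 and 3 UMIs in the Gulo-rich Cyp11b2-high cells, at 4.15 and 5.32 CPM against 8.23 and 6.92 CPM. It was thus 1.98-fold and 1.30-fold lower in that group. Slc23a2 differed little, at 56.4 and 83.3 CPM against 48.2 and 65.4 CPM. The median depths of the Gulo-rich and Gulo-free cells were 20468.5 and 18512 UMIs in library 1 and 17696.5 and 16191 UMIs in library 2, and the part of depth in these ratios was not tested.

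Slc23a2, the SVCT2 transporter gene, was found in every cortical group, with 5855 UMIs over the cortical cells. The Cyp11b2-high cells had 68.4 CPM in library 1 (680 UMIs, 63.3 to 73.7) and 108 CPM in library 2 (448 UMIs, 98.5 to 119). The Aldh1a1-high cells had 70.0 CPM (40 UMIs, 50.0 to 95.4) and 87.7 CPM (36 UMIs, 61.4 to 121). The co-expressing cells had 56.9 and 171 CPM, the widest gap between libraries of any group. Of the 68 Slc23a2 UMIs of that group in library 2, 12 came from a single cell.

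The other 3 groups lay lower and close together. Slc23a2 was at 45.5 and 57.0 CPM in the cells low in both, 41.3 and 59.7 CPM in the Cyp11b1-intermediate cells and 42.7 and 51.0 CPM in the Cyp11b1-high cells, and these 3 overlapped one another. Their highest value, 59.7 CPM, lay below both Cyp11b2-high and both Aldh1a1-high values, though not below the 56.9 CPM of the co-expressing cells in library 1. Leukocytes held 10.8 and 14.8 CPM from 5 UMIs in each library, and 6.02% and 6.94% of them had a Slc23a2 UMI against 65.5% and 71.3% of the Cyp11b2-high cells, which were the deeper cells. At 5000 UMIs per cell, 4 of 40 and 2 of 27 leukocytes kept one against 28.6% and 40.5% of the Cyp11b2-high cells. The steroidogenic transcript Star, the carrier of cholesterol into mitochondria, was at 28.1 and 41.5 CPM in the same leukocytes against 3447 and 3458 CPM in the Cyp11b2-high cells.

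In edgeR's test, Slc23a2 was lower in the Cyp11b1-high than in the Cyp11b2-high cells by -0.95 ± 0.13 (log2, adjusted p = 4.42e-06), with the Cyp11b2-high level 1.60-fold and 2.12-fold the other in the 2 libraries. It was also lower in the cells low in both (-0.78 ± 0.11, adjusted p = 2.24e-05) and in the Cyp11b1-intermediate cells (-0.88 ± 0.13, adjusted p = 2.76e-05). These 3 differences were nearly equal in size, unlike the steps of Gulo over the same groups. Without the term for library the values were -0.99, -0.82 and -0.90, and none of the 3 passed, with adjusted p-values of 0.0923, 0.578 and 0.297.

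In the Aldh1a1-high cells Slc23a2 was not separated from the Cyp11b2-high cells (log2 difference -0.17 ± 0.25, edgeR adjusted p = 0.666). With doubled thresholds that difference was -0.52 and passed, with an adjusted p of 0.0469. Against the Cyp11b1-high cells the difference was 0.78 ± 0.27 with an adjusted p of 0.0576, just short of the threshold, and the Aldh1a1-high level was 1.64-fold and 1.72-fold higher in the 2 libraries. With other size factors it was 0.84 and with DESeq2 0.84, and with these it passed (adjusted p = 0.0459 and 0.0309). Gulo was at or below 8.75 CPM in these same Aldh1a1-high cells.

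Slc23a1, the epithelial transporter gene, was nearly undetected. The cortical cells held 11 Slc23a1 UMIs in 11 cells, or 0.0977 CPM over all 112550256 UMIs (exact Poisson 95% interval 0.0488 to 0.175), too few to pass the filter on low counts, and it was not tested. The highest sum in any group and library was 4 UMIs, in 987 cells low in both enzymes. Leukocytes held 1 UMI. The 2 other genes of the family in the annotation were as scarce, with Slc23a3 at 1 UMI in the Cyp11b2-high cells and Slc23a4 at no more than 3 UMIs in any group and library. Of the 4 transporter genes only Slc23a2 was therefore measurable in these cells at this depth.

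The genes with the pattern most like Gulo were sought by the Pearson correlation of log2(CPM + 1), centred within each library, over the 12 group sums and 8154 genes with at least 20 CPM in a group. The points share libraries and depths, and the correlations are descriptions. In the Aldh1a1-high cells Gulo entered from 5 UMIs in library 1 and as 0 CPM in library 2. The weight of these low sums in the order of genes was not tested. Ankrd17 came first (r = 0.989), followed by Grb14 (0.981), Eno3 (0.978), Scg5 (0.978) and Gsta4 (0.978). Eno3, a muscle-type enolase of glycolysis, went from a mean of 379.8 normalised CPM in the Cyp11b2-high cells to 26.0 in the Cyp11b1-high and 19.7 in the Aldh1a1-high cells. Scg5, a chaperone of prohormone convertase, went from 100.2 to 8.51 and 4.54. Ankrd17 covered a narrow range, from 171 to 120.3 and 107.

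The genes most like Slc23a2 were Ptp4a1 (r = 0.955), Cycs (0.937), Mdn1 (0.932), Tbc1d16 (0.932) and Atp6v0b (0.929). The highest Slc23a2 sum, that of the co-expressing cells in library 2, held 68 UMIs in 27 cells, with 12 in a single cell. Its weight in these correlations was not tested. Ptp4a1, a prenylated protein phosphatase, had means of 74.8 normalised CPM in the Cyp11b2-high, 93.4 in the co-expressing, 46.4 in the Cyp11b1-high and 69.0 in the Aldh1a1-high cells. Cycs encodes cytochrome c of the respiratory chain. Gulo and Slc23a2 themselves correlated at 0.266 over the same 12 sums, with the co-expressing and Aldh1a1-high cells high in Slc23a2 and not in Gulo.

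A list of 69 genes around vitamin C, which includes Gulo and the Slc23 family, gave the setting of these levels, and 56 of them passed the filter. Between Cyp11b1-high and Cyp11b2-high cells, 12 were higher and 10 lower, beside 33.8% of all genes called, with a median log2 difference of 0.06 for the list and of -0.00 for all genes. Between Aldh1a1-high and Cyp11b2-high cells 11 were higher and 11 lower, beside 28.4% of all genes, with medians of 0.12 and -0.06. With DESeq2 that split was 15 higher and 8 lower. Between Aldh1a1-high and Cyp11b1-high cells 7 were higher and 4 lower, beside 14.8% of all genes called. In the cells low in both, 1 was higher and 6 lower than in the Cyp11b2-high cells, beside 13.0% of all genes, and in the Cyp11b1-intermediate cells 1 was higher and 7 lower, beside 17.4%.

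Of the 10 genes on the route from glucose to vitamin C, all were tested, and Gulo was the only one that was lower in any of the 5 comparisons. The median log2 difference of these 10 was 0.13 in the Cyp11b1-high and 0.44 in the Aldh1a1-high cells against the Cyp11b2-high cells. Neither value changed with 3 UMIs per library set in place of 0 for Hk2 in the Cyp11b2-high cells. Akr1a1, the aldehyde reductase that makes gulonate, stood at 545 and 496 CPM in the Cyp11b2-high and 611 and 612 CPM in the Cyp11b1-high cells and passed in neither comparison with the Cyp11b2-high cells. Ugdh, the dehydrogenase that makes UDP-glucuronate, was at 37.9 and 45.0 CPM and at 40.4 and 54.4 CPM, and did not pass either. Rgn, which encodes the gluconolactonase just before Gulo, was scarce, with 27 and 8 UMIs in the Cyp11b2-high cells (2.72 and 1.93 CPM) and 36 and 27 UMIs in the Cyp11b1-high cells (4.63 and 6.15 CPM). Its difference of 0.97 ± 0.33 passed with edgeR (adjusted p = 0.0250) and not with DESeq2.

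The hexokinase genes were among the higher ones on that route. Hk1, a hexokinase that phosphorylates glucose, was higher in the Aldh1a1-high than in the Cyp11b2-high cells by 1.16 ± 0.28 (edgeR adjusted p = 0.00336), from 13.8 and 20.1 CPM to 29.8 and 48.7 CPM. Hk2, another hexokinase, had no UMI in the Cyp11b2-high cells of either library, 10 and 9 UMIs in the Cyp11b1-high cells and 8 and 6 UMIs in the Aldh1a1-high cells. With 3 UMIs set in place of 0 in each library, Hk2 was 4.26-fold and 2.83-fold higher in the Cyp11b1-high cells. In the Aldh1a1-high cells it was 46.4-fold and 20.2-fold higher. These folds leave out the counting error of the few Hk2 UMIs and are not lower bounds. Pgm2, a phosphoglucomutase, was higher in the Cyp11b1-high cells by 0.56 ± 0.15 (edgeR adjusted p = 0.00586). Gusb, the lysosomal glucuronidase, was higher in the Aldh1a1-high than in the Cyp11b1-high cells by 0.66 ± 0.22 (adjusted p = 0.0431), which did not pass under 4 of 12 alternatives (no library term, cells thinned to 5000 UMIs, cells of at least 5000 UMIs, and doubled thresholds).

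Of 6 glucose transporter genes taken as routes for dehydroascorbate, 4 were tested. Slc2a4, the insulin-regulated transporter GLUT4, was lower in each comparison with the Cyp11b2-high cells. Its levels were 45.0 and 45.2 CPM in the Cyp11b2-high, 32.8 and 37.6 in the co-expressing, 22.8 and 18.5 in the low-in-both, 17.0 and 11.5 in the intermediate, 11.6 and 6.60 in the Cyp11b1-high and 1.75 and 4.87 CPM in the Aldh1a1-high cells. Of these neighbours in the order, the intermediate and the Cyp11b1-high cells overlapped and the others did not. The log2 differences from the Cyp11b2-high cells were -1.13 ± 0.11 in the cells low in both, -1.64 ± 0.14 in the intermediate, -2.31 ± 0.16 in the Cyp11b1-high and -3.93 ± 0.55 in the Aldh1a1-high cells (edgeR adjusted p from 1.63e-10 to 7.41e-06). Slc2a1, the widespread GLUT1, stood between 12.5 and 27.6 CPM in all 12 sums and passed in none. Slc2a3, GLUT3, was called higher in the Cyp11b1-high and Aldh1a1-high cells from 9 and 4 and from 3 and 1 UMIs, against 2 and 0 UMIs in the Cyp11b2-high cells, and DESeq2 did not call it in the Cyp11b1-high cells.

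Among 18 genes that reduce oxidised vitamin C or carry electrons to it, 15 were tested. Against the Cyp11b2-high cells 5 were higher and 2 lower in the Cyp11b1-high cells, beside 33.8% of all genes called, and 7 were higher and 4 lower in the Aldh1a1-high cells, beside 28.4%. Glrx, a glutaredoxin with dehydroascorbate reductase activity, was lower in both, from 37.1 and 44.5 CPM to 19.8 and 18.2 CPM (log2 difference -1.14 ± 0.14, edgeR adjusted p = 1.03e-06) and to 8 and 2 UMIs in the Aldh1a1-high cells (-2.02 ± 0.41, adjusted p = 0.000619). Gsto1, a glutathione transferase of the omega class that also reduces dehydroascorbate, was higher in the Cyp11b1-high cells by 0.40 ± 0.11 (adjusted p = 0.00795), at 65.1 and 65.8 CPM against 48.3 and 43.3 CPM, and in the Aldh1a1-high cells by 0.76 ± 0.22 (adjusted p = 0.0129). Glrx and Gsto1 thus differed in opposite directions.

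Cyb5r3, which passes electrons from NADH to cytochrome b5 and onward to the ascorbate radical, set the Aldh1a1-high cells apart. It stood at 299 and 273 CPM there, against 84.3 and 87.8 CPM in the Cyp11b2-high and 96.5 and 124 CPM in the Cyp11b1-high cells. The difference from the Cyp11b2-high cells was 1.69 ± 0.13 (log2, edgeR adjusted p = 1.21e-09) and from the Cyp11b1-high cells 1.45 ± 0.13 (adjusted p = 2.84e-08). Its partner Cyb5b, the cytochrome b5 of the outer mitochondrial membrane, was lower in the Aldh1a1-high cells by -0.68 ± 0.14 and -0.87 ± 0.13 (adjusted p = 0.00052 and 6.74e-05). Txn1, thioredoxin, was higher there by 0.82 ± 0.10 and 0.63 ± 0.10 (adjusted p = 1.56e-06 and 9.93e-05). Frrs1, a ferric reductase of the cytochrome b561 family, rose from 5.43 and 8.70 CPM to 22.8 and 29.2 CPM, from 13 and 12 UMIs (1.86 ± 0.35, adjusted p = 0.000269). Txnrd2, the mitochondrial thioredoxin reductase, was lower in the Cyp11b1-high cells by -0.40 ± 0.07 (adjusted p = 0.000129).

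Of 31 genes of vitamin C dependent enzymes and members of their families, 26 were tested, and most did not pass. Against the Cyp11b2-high cells, 3 were higher and 5 lower in the Cyp11b1-high cells (33.8% of all genes called). In the Aldh1a1-high cells 1 was higher and 5 lower against the same cells (28.4%). Pam, the peptide amidating enzyme, was among the most abundant, at 702 and 829 CPM in the Cyp11b2-high cells, 487 and 456 CPM in the Cyp11b1-high cells and 296 and 258 CPM in the Aldh1a1-high cells. Its log2 differences were -0.78 ± 0.09 and -1.50 ± 0.12 (edgeR adjusted p = 2.77e-07 and 2.14e-09). Dbh, the dopamine hydroxylase of the medulla and a classical user of vitamin C, had no UMI in any cortical group.

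The collagen hydroxylases went different ways. Plod1, a lysyl hydroxylase, was higher in the Cyp11b1-high cells by 1.04 ± 0.23 and in the Aldh1a1-high cells by 1.77 ± 0.45 (edgeR adjusted p = 0.00149 and 0.0044). It had only 34 and 23 UMIs in the Cyp11b2-high cells and 6 and 9 in the Aldh1a1-high cells. Neither difference passed with cells thinned to 5000 UMIs. P4ha1, a prolyl hydroxylase subunit, was lower in the Aldh1a1-high cells by -0.78 ± 0.25 (adjusted p = 0.0241). In library 1 its levels were close, at 45.5 CPM there against 47.7 CPM in the Cyp11b2-high cells. Library 2, with 13 P4ha1 UMIs in the Aldh1a1-high cells, thus carried most of that difference. P3h2, a prolyl 3-hydroxylase, was lower in the Cyp11b1-high cells by -1.30 ± 0.37 (adjusted p = 0.0095), with 4.73 and 14.5 CPM in the Cyp11b2-high cells against 3.22 and 3.87 CPM, so library 2 carried most of it.

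Among the dioxygenases of oxygen sensing and chromatin, Egln1, the prolyl hydroxylase that marks HIF for degradation, was lower than in the Cyp11b2-high cells by -0.27 ± 0.07 in the cells low in both, -0.36 ± 0.08 in the intermediate and -0.57 ± 0.08 in the Cyp11b1-high cells (edgeR adjusted p = 0.00958, 0.00191 and 8.2e-06). Kdm6b, a histone H3 lysine 27 demethylase, was lower in the Cyp11b1-high cells by -0.58 ± 0.11 (adjusted p = 0.000215). Tet2, an oxidase of 5-methylcytosine, was lower in the Aldh1a1-high cells by -1.10 ± 0.25 (adjusted p = 0.00188). It stood there at 29.8 and 36.5 CPM (17 and 15 UMIs) against 41.4 and 107 CPM in the Cyp11b2-high cells. In the other 5 groups Tet2 ranged from 38.3 to 53.5 CPM in library 1 and from 90.3 to 117 CPM in library 2.

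**Figure D4:**
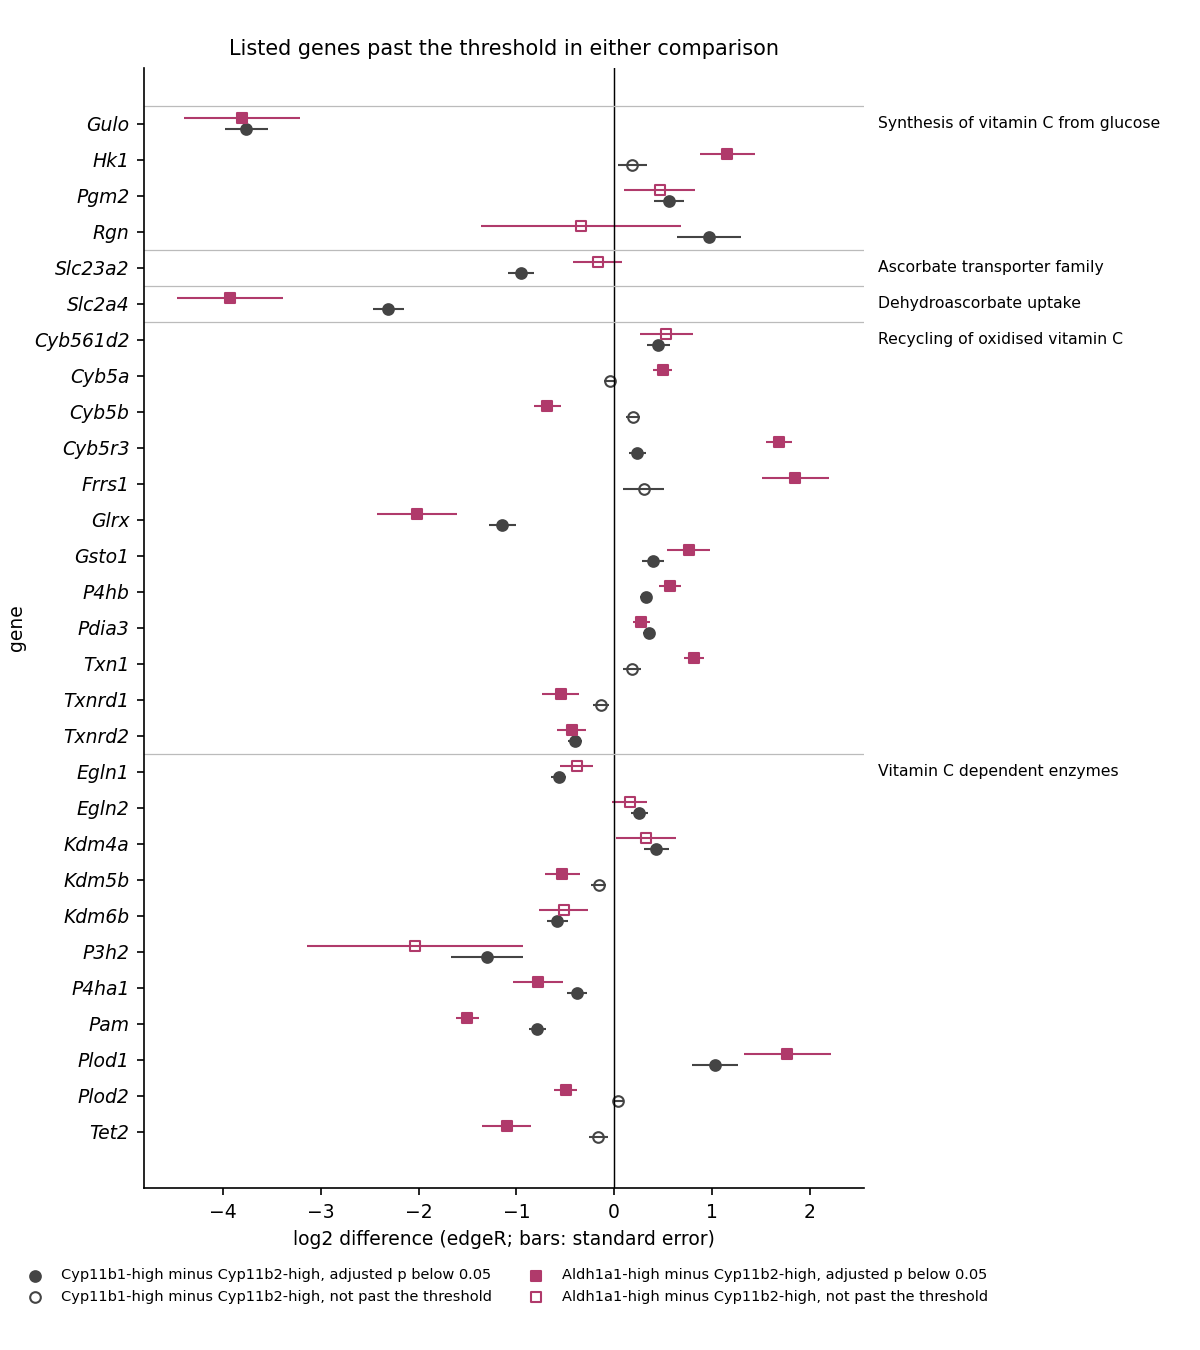
Log2 differences (horizontal axis, points, with standard errors as bars) of 29 listed genes (vertical axis) that passed an adjusted p of 0.05 in at least 1 of 2 comparisons, Cyp11b1-high (circles) and Aldh1a1-high (squares) against Cyp11b2-high cells; filled symbols passed and open ones did not. Gulo at -3.76 and -3.81 and Slc2a4 at -2.31 and -3.93 lie farthest to the left, and 2 genes with almost no UMIs in the Cyp11b2-high cells, Hk2 and Slc2a3, are left out.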

How the data were processed

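Single cells of male mouse adrenals were profiled in 2 libraries of 10x 3′ chemistry version 3.1. The deposited values are whole UMI counts per gene and barcode. Per the submitters' processing notes they come from Cell Ranger and mm10, and the file headers give software version 3.1.0; 31057 features were read. Other settings of the counting are not given in the sources used here.

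Cells with at least 1000 UMIs, 500 genes and at most 30% mitochondrial UMIs were kept, which removed 148 and 276 barcodes. Doublets were scored with scrublet (scanpy 1.11.5), and the highest scores were removed at 0.8% per 1000 barcodes (203 and 42 cells). Cortical cells had at least 3000 CPM of Star, Cyp11a1, Hsd3b1 and Cyp21a1 together and no leukocyte signal (9 markers summing to 300 CPM and 3 UMIs). The groups were cut by CPM, with the Aldh1a1-high cells taken first. UMIs were summed per group and library into 12 sums, since cells are not replicates, and tested with edgeR 4.0.16 in R 4.3.3 (TMM, filterByExpr, quasi-likelihood, group and library terms, 5 residual degrees of freedom) over 11813 genes. Cyp11b2, Cyp11b1 and Aldh1a1 were left out of the tests. A single library's log2 difference is the ratio of normalised CPM, with 3 UMIs in place of 0. Thinning drew 5000 UMIs per cell without replacement. UMIs count 3′ ends, so words on which gene was more abundant describe UMI counts only, and no difference between genes was tested.

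Counts were simulated for Cyp11b1-high against Cyp11b2-high cells over 11341 genes. Of the genes changed 1.5-fold 34 of 64 were called, of those changed 2-fold 51 of 62 and of those changed 4-fold 62 of 63, with 9 false calls. For Aldh1a1-high against Cyp11b2-high cells over 11335 genes these were 12 of 64, 39 of 66 and 51 of 64, with 5 false calls. The simulated counts had a single spread for all genes, few changed genes and no difference between libraries other than depth. Power and error rates on the measured counts may therefore differ.

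Members, groups and gene lists were chosen with earlier results of these data known. From each list, up to 3 genes per direction and comparison with the largest difference past the threshold and the same sign in both libraries were the ones to name, and most of them are given, plus the 5 genes most like each member; Akr1a1, Ugdh, Slc2a1, Slc23a3, Slc23a4, Dbh and the genes of the Gulo-rich cells were added after their values were seen. Alternatives changed the normalisation, the tool (DESeq2 1.42.0), the filter, the library term, depth, thresholds, doublets, mitochondrial and cortical limits and the library; leaving out cells with hemoglobin was added after seeing the data.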

Additional observations from a re-analysis of the deposited data

Results flagged for a closer look

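Members were also found in cells outside the compared groups. Slc23a2 had 5 UMIs in the leukocytes of library 1 and 5 in those of library 2, each above the limit of 3 UMIs that a count of 0 allows. In the 39 and 33 cells put in no group, which met both the steroid and the leukocyte limit or neither, Gulo had 5 and 5 UMIs (7.81 and 12.8 CPM) and Slc23a2 had 20 and 12 UMIs (31.2 and 30.7 CPM). They held 392 and 970 CPM of the proliferation gene Mki67, 1383 and 1477 CPM of Star and 2101 and 1562 CPM of the 9 leukocyte markers.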

How the results depend on the processing

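Gulo and Slc23a2 kept the direction of each passing difference under all alternatives run, and of the 58 named listed values over 29 genes none changed sign. Of those 58, 40 did not pass under at least 1 alternative, mostly without the library term or thinned, and Txnrd1 (Aldh1a1-high against Cyp11b2-high cells) did not under 6 of 12. Without the library term (no replicate block, which pairs the sums of one library), Slc23a2 did not pass in Cyp11b1-high, low-in-both and intermediate against Cyp11b2-high cells (-0.99, -0.82 and -0.90), nor Gulo in low-in-both cells (-0.64, and -0.65 with DESeq2). Slc23a2 passed in Aldh1a1-high against Cyp11b2-high cells with doubled thresholds (-0.52), and against Cyp11b1-high cells with other size factors (0.84), DESeq2 (0.84), no filter (0.75) and doublets kept (0.78). Leaving out a library gave Gulo -3.65 and -2.74 for Aldh1a1-high against Cyp11b2-high cells, and 0.40 against Cyp11b1-high cells, with no value without replicate 1.

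Counts of genes called higher and lower were, for Aldh1a1-high against Cyp11b2-high cells, 1574 and 1784, against 1004 and 905 without the library term and 722 and 962 thinned. For Cyp11b1-high against Cyp11b2-high cells they were 1839 and 2157, against 410 and 382, and 1016 and 1121. For Aldh1a1-high against Cyp11b1-high cells they were 927 and 821, against 390 and 212, and 354 and 412. For low-in-both cells they were 672 and 866, against 0 and 0 without the library term (699 genes at an unadjusted p below 0.05 with edgeR), 271 and 435 thinned, and 315 and 468 with DESeq2. For intermediate cells they were 844 and 1215, against 70 and 51, 373 and 573, and 551 and 854 with DESeq2. The cause was not tested; thinning leaves fewer UMIs and cells. Doubled thresholds left 8 and 7 co-expressing cells, which were dropped from that fit. Only 2 libraries limit all p-values, and with 5 UMIs Gulo in the Aldh1a1-high cells is known only roughly.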

Other observations

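Set against Star, a transcript of every steroidogenic cell, Gulo reached 15.6 and 27.1 UMIs per 1000 Star UMIs in the Cyp11b2-high cells, 16.3 and 22.4 in the cells low in both, 8.96 and 10.1 in the intermediate, 2.27 and 0.910 in the Cyp11b1-high cells and 2.28 and 0 in the Aldh1a1-high cells. On that scale the Cyp11b2-high and low-in-both cells changed places in library 1. Slc23a2 stood at 19.8 and 31.3 UMIs per 1000 Star UMIs in the Cyp11b2-high and 18.3 and 19.4 in the Aldh1a1-high cells.

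Cells with some Aldh1a1 below 500 CPM, 43 and 26 of them, held 34.2 and 30.1 CPM of Gulo and 42.8 and 55.9 CPM of Slc23a2. Cells with no Aldh1a1 UMI held 37.0 and 48.9 CPM of Gulo and 47.5 and 66.5 CPM of Slc23a2. Gulo in the cells with little Aldh1a1 was thus closer to that of the cells without it than to the 8.75 and 0 CPM of the Aldh1a1-high cells. These values were chosen after they were seen and were not tested.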
